A study of Rattus norvegicus with 6 samples.

Results

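The miRNAs described here are both arms of miR-223, miR-142, miR-150 and miR-342, stem-loops known from blood cells. They were chosen by name from the deposited counts, so they make up 8 of the 763 rat miRNAs of the table. All 8 were among the 404 miRNAs that passed the filter on low counts and were tested. The counts came from plasma exosomes of young adult male Sprague-Dawley rats, 3 libraries from control rats without RIPC (Control-exosome, C-exo) and 3 from rats that had RIPC (R-exo, also called RIPC-exosome), in what the study names its late phase. RIPC, remote ischemic pre-conditioning, was done in anesthetized rats by binding both hind limbs for 4 cycles of 5 min of ischemia and 5 min of reperfusion. Blood was drawn from the abdominal aorta of both groups 48 h later. Per the labels, plasma was made at 1600 g, cells and platelets were spun out at 2000 g and 10000 g, and exosomes were pelleted at 110000 g. The study's methods describe the exosome spins otherwise, with no step at 2000 g and a lower final force. They give the forces of the labels for another preparation, the plasma left free of exosomes. Neither the labels nor the methods say whether a library came from 1 rat or from several, so the p-values below measure the spread between these libraries.

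miR-223 is the miRNA of granulocytes and monocytes and is abundant in platelets. miR-142 is made in nearly all white blood cells, miR-150 is high in mature B and T cells, and miR-342 is found in lymphoid and myeloid cells. A stem-loop is cut into a 5p and a 3p arm, and as a rule one arm, the guide, is kept in the silencing complex while the other is lost. The arm usually described as the guide is 3p for miR-223 and miR-342 and 5p for miR-150, whereas both arms of miR-142 are used. Cells release such miRNAs in vesicles and with proteins, which is why they are found in plasma. In a bulk preparation, a smaller number of vesicles from a cell type and less miRNA in each vesicle cannot be told apart.

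The mature sequences of 6 of the 8 arms were in the RefSeq table of the rat assembly GRCr8. They are shown because each arm binds targets through its own seed, bases 2 to 8, which is in capitals.
rno-miR-223-3p: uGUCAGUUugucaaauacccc
rno-miR-223-5p: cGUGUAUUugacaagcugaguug
rno-miR-142-3p: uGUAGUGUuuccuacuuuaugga
rno-miR-142-5p: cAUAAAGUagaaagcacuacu
rno-miR-342-3p: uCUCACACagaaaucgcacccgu
rno-miR-342-5p: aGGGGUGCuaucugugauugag
rno-miR-150-5p and rno-miR-150-3p are given by name alone, and the prefix rno (rat) is left out from here on. No seed was shared between the 6 arms with a sequence or with any other mature miRNA of the RefSeq table. The seeds of the miR-150 arms were not compared. The 6 arms were 21 to 23 bases long, and their 3p arms began with U, whereas their 5p arms began with C or A.

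The stem-loops are shown because the results below turn on the balance of their arms. They are written 5′ to 3′ with the 5p arm and then the 3p arm in capitals.
miR-223: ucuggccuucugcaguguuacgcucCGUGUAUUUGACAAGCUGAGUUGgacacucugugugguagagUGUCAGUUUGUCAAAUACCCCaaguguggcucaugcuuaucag
miR-142: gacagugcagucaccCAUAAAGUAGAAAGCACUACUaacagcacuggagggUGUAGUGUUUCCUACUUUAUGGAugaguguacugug
miR-342: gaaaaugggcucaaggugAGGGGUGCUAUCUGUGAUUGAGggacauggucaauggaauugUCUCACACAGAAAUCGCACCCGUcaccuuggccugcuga
In GRCr8 they lie on the plus strand at chrX:65151383-65151492 for miR-223, chr10:73055104-73055190 for miR-142 and chr6:133329655-133329753 for miR-342. The miR-142 stem-loop lies within the span of the gene Tspoap1, with Mpo, the gene of the granulocyte enzyme myeloperoxidase, next after it. The miR-342 stem-loop lies within the span of Evl, a regulator of actin that is expressed in lymphocytes. The miR-223 stem-loop lies within a long non-coding RNA gene (LOC120099372), and the next gene is Vsig4, a complement receptor of macrophages. The deposited table itself has no coordinates, and the submitters' processing notes name the rn6 build.

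The reads counted on miRNAs numbered between 5484209 and 7531737 per library. Levels are given as TMM-normalized CPM, counts brought to 1 common library total with edgeR's TMM factor for each library. A count of 3, taken as the floor, stood for 0.398 to 0.547 CPM before TMM scaling, far under every value of the 8 arms. The library C-exo replicate 3 stood apart from C-exo replicates 1 and 2. In log2 CPM it was nearer to the mean of R-exo than of C-exo replicates 1 and 2 for 331 of the 404 tested miRNAs (81.9%), among them 7 of the 8 arms. The fold changes and arm ratios of the members are therefore also given without it. That library was singled out by its measured likeness to R-exo, and leaving it out sets the groups further apart by construction, so the p-values without it are a description and no independent support. No miRNA of the 404 had an adjusted p under 0.05 (0.0%) in edgeR's quasi-likelihood test with all 6 libraries, while 38 had an unadjusted p under 0.05. DESeq2, limma-voom and edgeR's exact test likewise gave 0. Without C-exo replicate 3, 132 of 422 tested miRNAs had an adjusted p under 0.05 (31.3%, edgeR's quasi-likelihood test), 17.3% higher and 14.0% lower in R-exo. Among them were 2 of the 8 arms, miR-142-5p on the higher side and miR-150-3p on the lower.

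The 8 arms held a small part of the counts, and in 4 of the 6 libraries most of it was miR-142-5p, the exceptions being C-exo replicates 1 and 2. Their joint share was 1.04%, 0.774% and 2.28% in C-exo replicates 1, 2 and 3. The share in R-exo replicates 1, 2 and 3 was 1.75%, 2.99% and 1.44%. The highest and the lowest shares were thus an R-exo and a C-exo library, but C-exo replicate 3 lay above 2 of the R-exo libraries. The mean was 1.36% ± 0.806 in C-exo and 2.06% ± 0.818 in R-exo (SD, n = 3 each). Without C-exo replicate 3 the C-exo mean was 0.905%. At these depths the counting error was small, and for the lowest share, 0.774%, the Wilson 95% interval was 0.768% to 0.781%. It covers counting error only, as the labels name no molecular identifiers. Without miR-142-5p, the other 7 arms took 0.629% ± 0.180 of the counts in C-exo and 0.580% ± 0.124 in R-exo (SD, n = 3 each). No test was made on these sums.

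Of the 8 arms, 5 had a log2 fold change of R-exo over C-exo above 0 and 3 had one below 0. Their median was 0.16, against -0.05 over the 404 tested miRNAs. The study's criterion for a differing miRNA was a change of over 2 times at a p under 0.05, and whether that p was adjusted is not stated. Read with the unadjusted p, it was met by 9.41% of the tested miRNAs, 1.98% higher and 7.43% lower in R-exo, and by 0 of the 8 arms. That is 8 higher of 38, against 12 higher of 37 with DESeq2's size factors (RLE) and 18 higher of 33 with library totals alone, which moved the median over the tested miRNAs by 0.15 in log2. The count of arms turned to 1 of 8, miR-142-3p, with either of these, with DESeq2's test and without C-exo replicate 1, and to 2 of 8, miR-142-5p and miR-150-3p, without C-exo replicate 3. The groups overlapped in CPM for each of the 8, whereas they did not overlap for 12.9% of the tested miRNAs (4.95% with R-exo the higher). The plot of the levels shows each library.

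**Figure D1:**
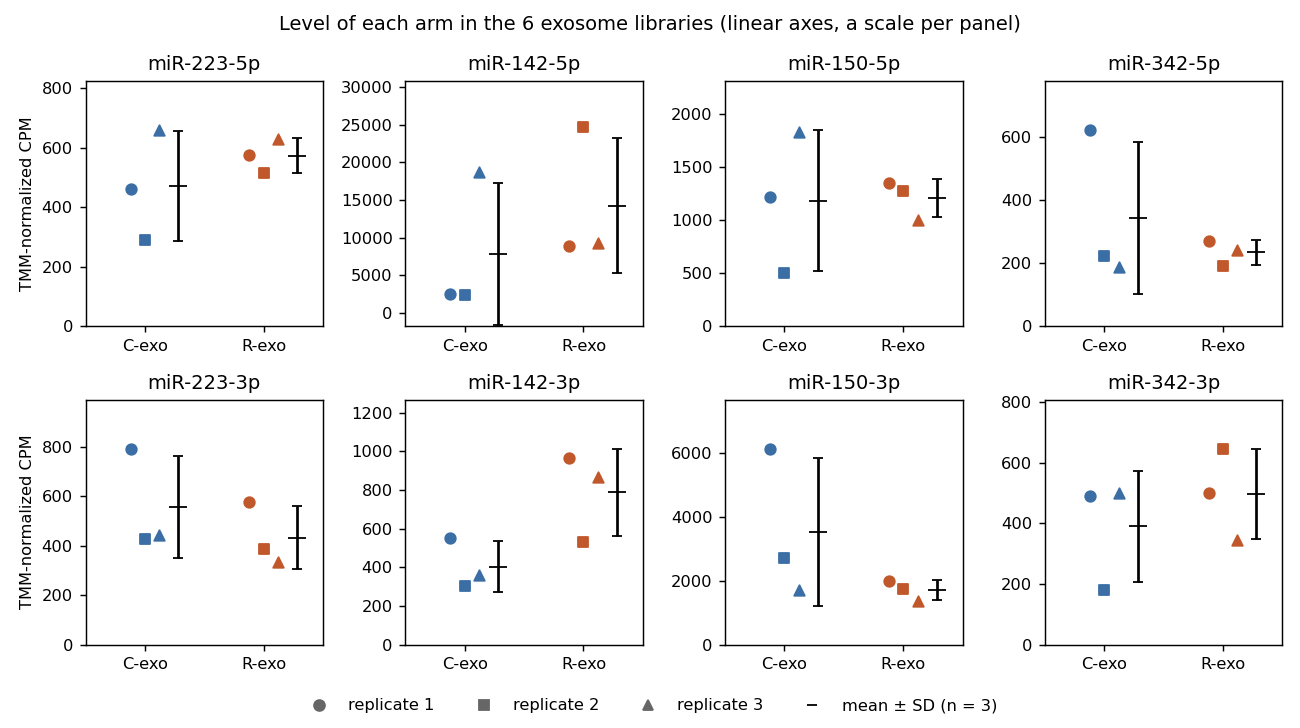
Level of each arm in the 6 libraries, as TMM-normalized CPM on a linear axis with a scale per panel. Each point is a library, the shape gives its replicate number, and the bar is the mean with its SD (n = 3). C-exo replicate 3 reached 18749 CPM for miR-142-5p, near the R-exo values, and was the lowest C-exo library for miR-150-3p, at 1719.8 CPM.

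By mean CPM, miR-142-5p was the highest of the 8 arms in both groups. In C-exo replicates 1 and 2 miR-150-3p was above it, at 6149 and 2720.2 CPM. The arms of miR-142, the pan-leukocyte miRNA, had the largest log2 fold changes above 0 among the 8. miR-142-5p was read at 2444, 2321 and 18749 CPM in C-exo replicates 1, 2 and 3. In R-exo replicates 1, 2 and 3 it was read at 8891, 24668 and 9242 CPM. C-exo replicates 1 and 2 were the lowest of the 6 libraries, and C-exo replicate 3 was above 2 R-exo libraries. The means were 7838 ± 9450 CPM in C-exo and 14267 ± 9009 CPM in R-exo (SD, n = 3 each), so the SD within C-exo exceeded its mean. The log2 fold change was 0.86 (standard error, SE, 0.83, 95% interval -1.002 to 2.73, adjusted p = 0.61 in edgeR's quasi-likelihood test). Without C-exo replicate 3 it was 2.59 (adjusted p = 0.0053 by edgeR), and without R-exo replicate 2 it was 0.27. By its mean CPM it ranked 27 among the 763 miRNAs in C-exo and 22 in R-exo, and its rank in single libraries ran from 43 in C-exo replicates 1 and 2 to 11 in R-exo replicate 2. Its highest library was 10.6 times its lowest, and 91.3% of the tested miRNAs had a smaller range over the 6 libraries, for which the median was 3.91 times.

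The opposite arm, miR-142-3p, was less abundant and steadier. It was read at 550.4, 301 and 359 CPM in C-exo and at 965, 533 and 868 CPM in R-exo replicates 1, 2 and 3. R-exo replicate 2 lay just under C-exo replicate 1, and the other R-exo libraries lay above all C-exo libraries. The means were 403 ± 131 CPM in C-exo and 789 ± 227 CPM in R-exo (SD, n = 3 each). The log2 fold change was 0.97 (SE 0.46, 95% interval -0.06 to 1.99, unadjusted p = 0.062 and adjusted p = 0.47 in edgeR's quasi-likelihood test). No other of the 8 arms had a smaller p. miR-142-3p was also the only one of the 8 for which C-exo replicate 3 stayed with C-exo replicates 1 and 2, and its log2 fold change without that library was 0.90 (adjusted p = 0.13 by edgeR). Over all leave-one-out fits it ran from 0.84, without C-exo replicate 2, to 1.21, without C-exo replicate 1 (unadjusted p = 0.033 and adjusted p = 0.81 by edgeR). Scaled by the library totals alone, without TMM factors (RPM), it was read at 448, 334 and 335 RPM in C-exo and at 1115, 532 and 891 RPM in R-exo. On that scale the groups did not overlap, which of the 8 arms was so for miR-142-3p alone. It was so for 13.6% of the tested miRNAs, and for 8.66% with R-exo the higher.

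The arms of the lymphocyte miRNA miR-150 differed in their values, with the 3p mean lower in R-exo and the 5p means nearly equal. miR-150-3p, the arm usually lost, was read at 6149, 2720.2 and 1719.8 CPM in C-exo replicates 1, 2 and 3. In R-exo it was read at 2005, 1735 and 1368 CPM. C-exo replicates 1 and 2 were above all R-exo libraries, and C-exo replicate 3 lay among them. The means were 3529.7 ± 2323 CPM in C-exo and 1703 ± 320 CPM in R-exo (SD, n = 3 each). R-exo over C-exo, the log2 fold change was -1.05 (SE 0.54, 95% interval -2.25 to 0.15, unadjusted p = 0.080 and adjusted p = 0.47 in edgeR's quasi-likelihood test), the lowest of the 8. Without C-exo replicate 3 it was -1.37 (adjusted p = 0.026 by edgeR), and without C-exo replicate 1 it was -0.47 (adjusted p = 0.90 by edgeR). It ranked 41 of 763 by mean CPM in C-exo and 53 in R-exo.

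miR-150-5p, the usual guide, had nearly equal means of 1183 ± 665 CPM in C-exo and 1207 ± 180 CPM in R-exo (SD, n = 3 each). The single libraries were at 1213, 503 and 1833 CPM in C-exo and at 1347, 1270.2 and 1004 CPM in R-exo. All R-exo libraries lay between the lowest and the highest C-exo library. In log2, the fold change was 0.03 (SE 0.52, 95% interval -1.14 to 1.20, adjusted p = 0.99 in edgeR's quasi-likelihood test). It was 0.50 without C-exo replicate 3 and -0.29 without C-exo replicate 2, and its interval spans more than a doubling in either direction.

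The myeloid and platelet miRNA miR-223 was among the lower arms, and its means differed by less than the spread between libraries. miR-223-3p, the usual guide, was read at 793, 428 and 444 CPM in C-exo and at 575, 387 and 333 CPM in R-exo replicates 1, 2 and 3. R-exo replicate 1 was above 2 of the C-exo libraries, and the other R-exo libraries were below all of them. Its fold change in log2 was -0.36 (SE 0.46, 95% interval -1.39 to 0.66, adjusted p = 0.71 in edgeR's quasi-likelihood test). Its value was -0.49 without C-exo replicate 3 and -0.07 without C-exo replicate 1.

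miR-223-5p was read at 463, 291 and 660 CPM in C-exo and at 576, 515 and 630 CPM in R-exo replicates 1, 2 and 3. The R-exo libraries lay close together, above C-exo replicates 1 and 2 and below C-exo replicate 3. The means were 471 ± 185 CPM in C-exo and 574 ± 57.7 CPM in R-exo (SD, n = 3 each). Between the groups, the log2 fold change was 0.28 (SE 0.45, 95% interval -0.72 to 1.29, adjusted p = 0.77 in edgeR's quasi-likelihood test) and 0.62 without C-exo replicate 3 (adjusted p = 0.25 by edgeR), but 0.08 without C-exo replicate 2. The SD of its log2 CPM was 0.15 within R-exo, and 9.65% of the tested miRNAs had a smaller one.

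miR-342 had fold changes of opposite sign in its arms, neither past the test. miR-342-3p, the usual guide, was read at 491, 179 and 501 CPM in C-exo and at 499, 647 and 346 CPM in R-exo replicates 1, 2 and 3. C-exo replicate 2 was the lowest library, and the groups overlapped for the rest. The fold change, in log2, was 0.35 (SE 0.51, 95% interval -0.80 to 1.501, adjusted p = 0.76 in edgeR's quasi-likelihood test), 0.58 without C-exo replicate 3 and 0.03 without C-exo replicate 2. miR-342-5p was read at 623, 222.5 and 188 CPM in C-exo and at 271, 191 and 240 CPM in R-exo replicates 1, 2 and 3. C-exo replicate 1 alone stood high, and the other 5 libraries lay between 188 and 271 CPM. Its log2 fold change was -0.56 with all libraries (SE 0.54, 95% interval -1.76 to 0.65, adjusted p = 0.61 in edgeR's quasi-likelihood test) and -0.84 without C-exo replicate 3, but 0.12 without C-exo replicate 1, with the direction turned.

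**Figure D2:**
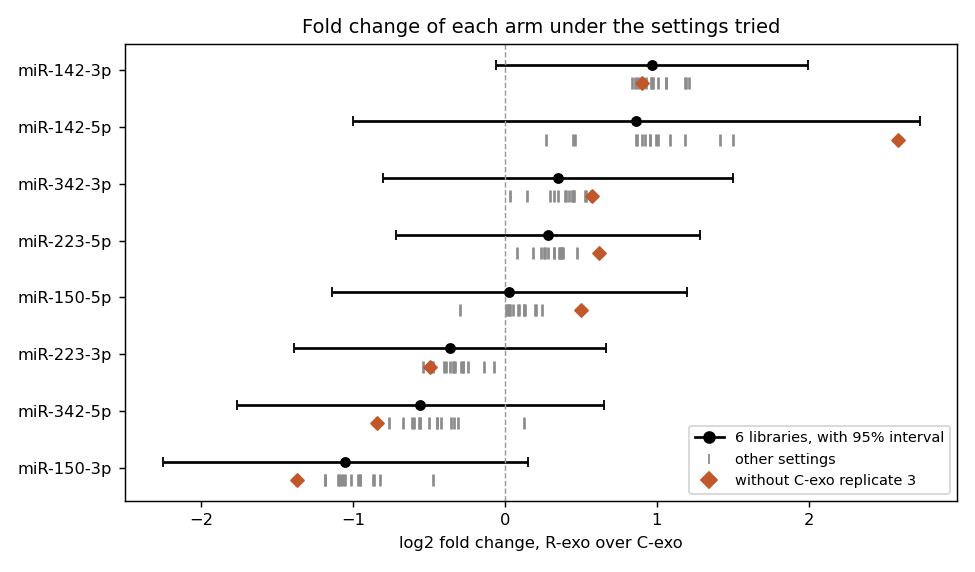
Log2 fold change of each arm, R-exo over C-exo. Black points are the fit with 6 libraries with its 95% interval, grey marks the other settings, and orange diamonds the fit without C-exo replicate 3; all 8 intervals include 0, and the diamond of miR-142-5p is at 2.59 against 0.86 with 6 libraries.

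The order of the levels was taken within libraries, with no level divided by length, since the 6 arms with a sequence are of nearly the same length. No length was at hand for the arms of miR-150. Reads were not calibrated against known amounts of RNA, so the order is one of read counts. In R-exo the order by mean CPM was miR-142-5p, miR-150-3p, miR-150-5p, miR-142-3p, miR-223-5p, miR-342-3p, miR-223-3p and miR-342-5p. Each of the first 4 was above the next in all 3 R-exo libraries, and miR-342-5p was below miR-223-3p in all 3. miR-223-5p and miR-342-3p, and miR-342-3p and miR-223-3p, changed places in 1 of the 3 libraries. In C-exo the order was less fixed. Only miR-150-5p was above its neighbour, miR-223-3p, in all 3 libraries, and miR-150-3p was above miR-142-5p in 2 of the 3. miR-223 was read less than miR-150. The sum of both arms was 0.0951% ± 0.0131 of the counts for miR-223 and 0.430% ± 0.147 for miR-150 in C-exo (SD, n = 3), and 0.107% ± 0.0228 against 0.310% ± 0.0725 in R-exo (SD, n = 3).

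The ratio of the arms of a stem-loop does not depend on how libraries are scaled. The counts of miR-150-5p were 0.197, 0.185 and 1.07 times those of miR-150-3p in C-exo and 0.672, 0.732 and 0.734 times in R-exo replicates 1, 2 and 3. The R-exo libraries were nearly equal, and those of C-exo lay on both sides of them. For miR-223 the ratio of 5p to 3p was 0.583, 0.679 and 1.49 in C-exo and 1.002, 1.33 and 1.89 in R-exo. Here too C-exo replicates 1 and 2 were the lowest, with the guide arm in excess, whereas no R-exo library had more 3p than 5p counts.

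For miR-142 the 5p arm exceeded the 3p arm 4.44, 7.71 and 52.2 times in C-exo and 9.21, 46.3 and 10.6 times in R-exo. The high values of C-exo replicate 3 and R-exo replicate 2 stood apart from the other 4 libraries. For miR-342 the ratio of 5p to 3p was 1.27, 1.24 and 0.374 in C-exo and 0.543, 0.295 and 0.695 in R-exo. The usual guide, 3p, was therefore in excess in all R-exo libraries and in C-exo replicate 3, and the 5p arm in C-exo replicates 1 and 2.

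**Figure D3:**
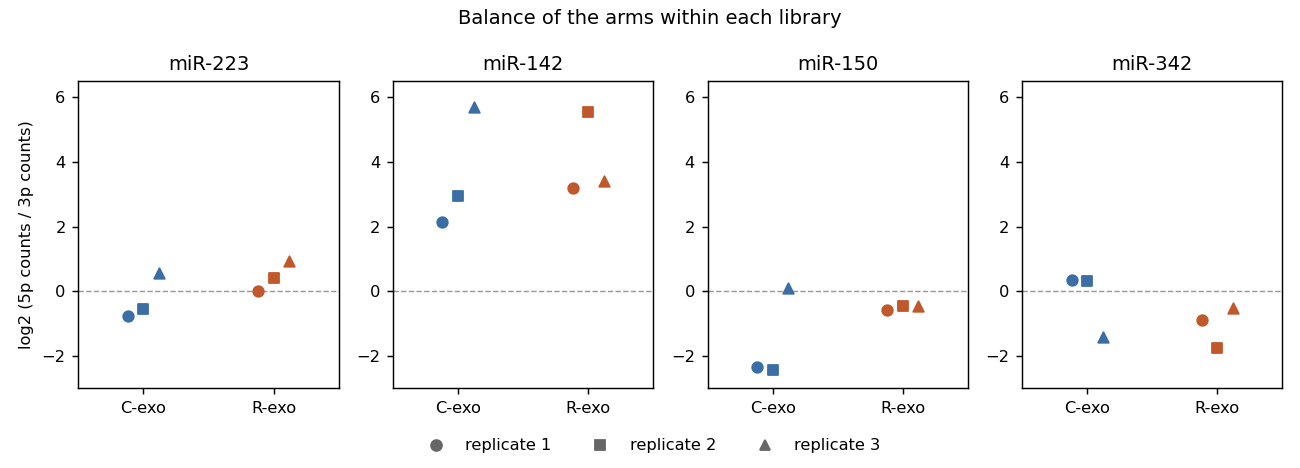
Log2 ratio of the 5p to the 3p counts of each stem-loop within each library; the dashed line marks equal counts and the shape gives the replicate number. In all 4 panels the C-exo libraries spread over both sides of at least 1 R-exo library; for miR-142 and miR-150, C-exo replicate 3 lies above every other library, at 52.2 and 1.07 times.

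The difference of the log2 arm ratio, R-exo minus C-exo, was 0.70 (SE 0.49) for miR-223, 0.45 (SE 1.31) for miR-142, 1.07 (SE 0.83) for miR-150 and -0.80 (SE 0.69) for miR-342. The groups overlapped in each, whereas they did not overlap for 14.5% of the 110 stem-loops with both arms tested. The exact two-sided permutation p was 0.3, 0.6, 0.4 and 0.3 for these 4 ratios, and adjusted over the 10 ratios tested it was 0.5, 0.67, 0.5 and 0.5 (exact permutation test, Benjamini-Hochberg). The smallest p that 3 libraries against 3 allow is 0.1. Without C-exo replicate 3 the differences were 1.11, 1.501, 1.90 and -1.38. They were nearest to 0 at 0.44 for miR-223 without C-exo replicate 1, 0.63 for miR-150 without C-exo replicate 2 and -0.45 for miR-342 without R-exo replicate 2. For miR-142 the difference turned to -0.28 without C-exo replicate 1 and to -0.29 without R-exo replicate 2. The arm with more counts was not the same in every library for miR-223, miR-150 and miR-342, as was so for 19 of the 110 stem-loops (17.3%). In size, the difference of miR-150 exceeded that of 72.7% of the 110 stem-loops and that of miR-142 exceeded that of 29.1%.

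The higher arms of the 4 stem-loops, by the mean CPM over all 6 libraries, were miR-223-5p, miR-142-5p, miR-150-3p and miR-342-3p, and 6 log2 ratios between them were compared. For miR-223 the means over 6 libraries were close, 522 CPM for 5p and 494 CPM for 3p, and within C-exo the 3p mean was the higher, 555 against 471 CPM. The largest difference was that of miR-142-5p over miR-150-3p. The ratio was 0.397, 0.853 and 10.9 in C-exo and 4.43, 14.2 and 6.76 in R-exo. C-exo replicates 1 and 2 had fewer reads of miR-142-5p than of miR-150-3p, the arm usually lost, and all other libraries had more. Against miR-150-5p, the usual guide, miR-142-5p had more reads in every library. The counts were 10904 and 18126 against 5414 and 3931 in C-exo replicates 1 and 2. The log2 difference was 2.28 (SE 1.53, exact two-sided permutation p = 0.3, adjusted p = 0.5), with 3.69 without C-exo replicate 3 and 1.30 without C-exo replicate 1. The ratio of miR-223-5p to miR-342-3p was the steadiest, between 0.796 and 1.82 in all 6 libraries, with a log2 difference of -0.09 (SE 0.41). The other 4 had an exact permutation p of 0.3 or 0.4.

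Base composition moved with the groups and with C-exo replicate 3 across the tested miRNAs. The RefSeq table gave the sequence of 364 of these 404 (90.1%). By the GC content of that sequence, the median log2 fold change of R-exo over C-exo was 0.63 for the 67 miRNAs under 40%, 0.23 for the 122 from 40% to under 50%, -0.33 for the 120 from 50% to under 60% and -1.02 for the 55 at 60% and over. The difference of C-exo replicate 3 from the mean of C-exo replicates 1 and 2 followed the same order, with medians of 1.42, 0.69, -0.38 and -1.17 in log2 CPM. The share of counts on miRNAs under 40% GC was 2.08%, 2.72% and 9.46% in C-exo and 7.73%, 11.0% and 11.2% in R-exo replicates 1, 2 and 3.

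The arms are read against these medians because they differ in composition. miR-142-5p (33.3% GC) and miR-142-3p (34.8% GC) belong to the lowest class, and their log2 fold changes were above its median by 0.24 and 0.34. miR-342-3p (52.2% GC) was above the median of its class by 0.68, the largest such difference above 0, and miR-342-5p (50% GC) differed from it by -0.23. The arms of miR-223 have nearly the same composition, 43.5% GC for 5p and 42.9% for 3p, and differed from the class median by 0.06 and -0.59. In C-exo replicate 3 against the other C-exo libraries, miR-142-5p was higher by 2.98 in log2 CPM, above the median of its class, whereas miR-142-3p of the same class differed by -0.18. Of the 93 stem-loops with both sequences and both arms tested, the 5p arm had the lower GC content in 52, and the R-exo mean of the ratio of 5p to 3p was above that of C-exo replicates 1 and 2 in 36 of these. The 5p arm had the higher GC content in 34, and the ratio was higher in R-exo in 10 of these. For C-exo replicate 3 against the same libraries the numbers were 35 of 52 and 14 of 34. The arms of miR-223, miR-142 and miR-342 differ little in GC content. The part of base composition in the values of the 8 arms was not tested. This comparison was added after the data had been seen, and it holds no value for miR-150.

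**Figure D4:**
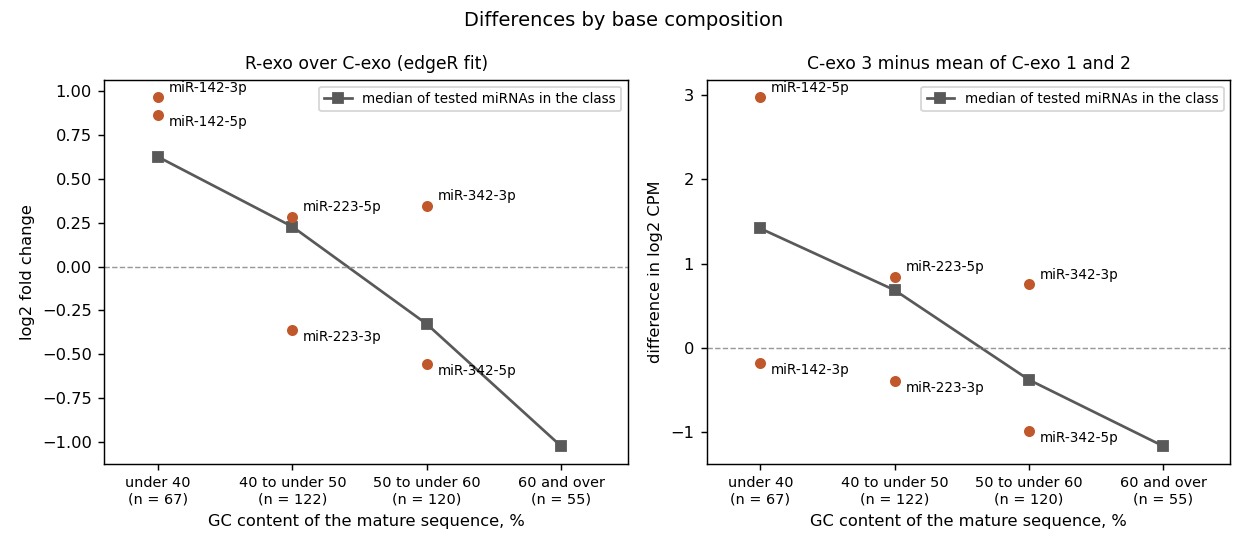
Median log2 fold change of R-exo over C-exo (left) and median difference in log2 CPM of C-exo replicate 3 from the mean of C-exo replicates 1 and 2 (right), by GC content of the mature sequence. Grey squares are the tested miRNAs of each class, which number 67, 122, 120 and 55, and orange points are the 6 arms with a sequence; the medians fall from 0.63 to -1.02 on the left and from 1.42 to -1.17 on the right.

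For likeness, log2 CPM was centred on each miRNA's own mean over the 6 libraries, and the root mean square difference was taken over these libraries, as a description. Nearest to miR-142-5p were miR-27a-3p, miR-15a-5p and miR-140-5p, at 0.26, 0.27 and 0.28. miR-27a-3p was read at 2578, 3020.2 and 21032.5 CPM in C-exo and at 7601, 22504 and 13067 CPM in R-exo, highest in the same libraries, C-exo replicate 3 and R-exo replicate 2, as miR-142-5p. Nearest to miR-150-3p were miR-181c-3p, miR-3064-5p and miR-425-5p, at 0.14, 0.17 and 0.18. Nearest to miR-223-5p were miR-30e-3p, miR-872-5p and miR-146b-5p, at 0.22, 0.22 and 0.23, and nearest to miR-342-3p were miR-200a-5p, miR-200b-5p and miR-323-3p, at 0.16, 0.22 and 0.26.

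The higher arm of each stem-loop was also set against the other 7 arms. The smallest of these differences was that of miR-342-3p from miR-150-5p, at 0.27, and miR-150-5p ranked 4 for miR-342-3p among the 403 other tested miRNAs. The other arm of the same stem-loop was less near. It ranked 139 of 403 for miR-223-5p, 184 for miR-142-5p, 234 for miR-150-3p and 168 for miR-342-3p. Among the 8 arms, the nearest to miR-150-3p was miR-342-5p, at 0.35, followed by miR-223-3p, at 0.41, and the nearest to miR-223-5p was miR-150-5p, at 0.30. Guides and passengers were thus mixed among the nearest arms.

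Other miRNAs of blood cells and tissues were taken from lists of names. Of 8 further leukocyte miRNAs, all were tested and none had an adjusted p under 0.05 in edgeR's quasi-likelihood test. By the study's criterion 1 was higher, miR-132-3p (1.98% of the tested miRNAs were). It was read at only 2.69, 1.41 and 4.98 CPM in C-exo and at 10.8, 10.5 and 5.14 CPM in R-exo. Its lowest count was 11, against the floor of 3. The median log2 fold change of the list was 0.17, with values from -0.08 for miR-181a-5p to 1.54 for miR-132-3p. When C-exo replicate 3 was left out, the values ran from 0.11 for miR-146a-5p to 2.14 for miR-132-3p. miR-155-5p, the miRNA of activated lymphocytes and macrophages, was read at 10.8, 6.02 and 27.3 CPM in C-exo and at 27.1, 28 and 36.5 CPM in R-exo. C-exo replicate 3 again lay with R-exo. The fold change in log2 was 1.05 (SE 0.59, adjusted p = 0.50 in edgeR's quasi-likelihood test), and 1.89 without C-exo replicate 3. The summed level of the list was 30986 to 46558 CPM in C-exo and 35974 to 43573 CPM in R-exo.

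Of 7 platelet miRNAs none met the criterion, and the median was -0.08. The sum, mostly miR-24-3p, was 103119 to 156929 CPM in C-exo and 136631 to 149648 CPM in R-exo. miR-24-3p alone was read at 80616 to 97549 CPM over the 6 libraries. miR-191a-5p, the first of the list, differed by -0.47 in log2 (SE 0.44, adjusted p = 0.61 in edgeR's quasi-likelihood test). The log2 fold changes of the 7 ran from -0.79 for miR-28-3p to 1.21 for miR-26a-5p. Without C-exo replicate 3 they ran from -1.11 to 2.80 for the same miRNAs. Of 6 red cell miRNAs, 2 were higher by the criterion, against 1.98% of the tested miRNAs, and they were the arms of a single stem-loop, miR-144-3p and miR-144-5p. The median was 0.72, but the sum, mostly miR-486, was 70125 to 198471 CPM in C-exo and 45308 to 75996 CPM in R-exo. Log2 fold changes in this list ran from -1.07 for miR-486 to 1.63 for miR-144-5p. Without C-exo replicate 3 they ran from -1.35 for miR-486 to 2.97 for miR-16-5p. miR-451-5p, the miRNA of red cells, was read at 2023, 2250.1 and 4599.5 CPM in C-exo and at 3165, 6239 and 2059.6 CPM in R-exo. The part of red cell or platelet RNA in the levels of the 8 arms was not tested.

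Of the endothelial list 1 of 2, of the liver list 0 of 3 and of the striated muscle list 0 of 4 met the criterion (9.41% of the tested miRNAs did, 1.98% on the higher side, where the endothelial one, miR-126a-3p, lay), with medians of 0.89, -0.01 and -0.16. The summed levels were 4722 to 16771 against 20585 to 30331 CPM for endothelium, 79866 to 109248 against 76438 to 81303 CPM for liver and 2094 to 9681 against 1688 to 5858 CPM for muscle, C-exo first. The first miRNA of each list was miR-126a-3p, miR-122-5p and miR-1-3p, with log2 fold changes of 1.34, -0.65 and -0.55 (adjusted p = 0.46, 0.51 and 0.80 in edgeR's quasi-likelihood test). Without C-exo replicate 3 they were 1.998, -0.38 and 1.43, so that the direction of miR-1-3p turned. The medians of the lists are with all libraries, and their other members moved as well when C-exo replicate 3 was left out. miR-126a-5p went from 0.45 to 1.93, and in the liver list miR-192-5p from -0.01 to -0.09 and miR-194-5p from 0.56 to 1.58. In the muscle list miR-206-3p went from 0.002 to 1.34, miR-133a-3p from -0.33 to -0.44 and miR-133b-3p from 0.01 to -0.36. No listed miRNA was at 0 in any library.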

How the data were processed

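The authors deposited raw counts, the reads on each mature rat miRNA, without normalization, in a column for each library. The submitters' processing notes name bcl2fastq, BWA and the rn6 build. The miRNA database and the rule for reads that match several miRNAs are not given in the sources used here. Groups and replicate numbers came from the sample titles, and every column was used. No 2 libraries of a group differed by as little as sampling noise.

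The tests ran in edgeR 4.0.16 (R 4.3.3), with filterByExpr by group (minimum count 10, minimum total 15), TMM factors, and the quasi-likelihood test of R-exo against C-exo with Benjamini-Hochberg adjustment over the 404 tested miRNAs. Standard errors and 95% intervals came from the fold change and its F statistic. log2 CPM used a prior count of 2 and ratios of arms 0.5 added to each count. Ratios were compared by an exact permutation test (scipy 1.17.1). The alternatives were other scalings, filters and tests (DESeq2 1.42.0, limma 3.58.1), leaving out each library, and the replicate block. The fit was tested on simulated data, in which no library was set apart and no shift followed base composition.

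The named miRNAs were the 8 arms, the 3 nearest to the higher arm of each stem-loop, and the first of each list of blood and tissue miRNAs. Others were chosen after their values were seen. They are the largest part of a sum, the ends of a range, the members of a small count or the rest of a short list. The members and lists were chosen with earlier results of these data known. Gene positions and sequences are from RefSeq (GRCr8), in which 686 of the 763 names had a mature sequence. Figures were drawn with matplotlib 3.10.9.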

Additional observations from a re-analysis of the deposited data

How the results depend on the processing

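Over the 10 other settings with all 6 libraries, no arm changed sign and none had an adjusted p under 0.05 (edgeR, DESeq2 or limma). The log2 fold change of miR-142-3p stayed between 0.87 and 1.18, with an unadjusted p under 0.05 in 4 of the 10 (in 3 of them with a change of over 2 times) and adjusted p-values from 0.30 to 0.49, and that of miR-150-3p between -1.18 and -0.82 (adjusted p from 0.38 to 0.54). The number of miRNAs meeting the fold and p criterion was 38, and 63 without the filter on low counts. With each library left out it ran from 15 to 182, and the number with an adjusted p under 0.05 from 0 to 132, the highest of both without C-exo replicate 3.

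With each library left out, the log2 fold change ran from -0.54 to -0.07 for miR-223-3p, 0.08 to 0.62 for miR-223-5p, 0.84 to 1.21 for miR-142-3p, 0.27 to 2.59 for miR-142-5p, -0.29 to 0.50 for miR-150-5p, -1.37 to -0.47 for miR-150-3p, 0.03 to 0.58 for miR-342-3p and -0.84 to 0.12 for miR-342-5p. The difference of the log2 arm ratio ran from -0.29 to 1.501 for miR-142, reaching -0.28 without C-exo replicate 1, and that of miR-223-5p over miR-342-3p from -0.40 to 0.20, reaching 0.09 without C-exo replicate 2. The share of the 8 arms ran from 0.905% to 1.66% in C-exo and from 1.60% to 2.37% in R-exo. With the 10 most abundant other miRNAs left out of the total it was 3.27% in C-exo and 4.202% in R-exo.

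The labels do not say whether the replicate numbers pair the libraries. Same-numbered libraries had correlations of their deviations from the group means of 0.33, -0.28 and 0.28. With 3 libraries per group these values cannot settle it. With the replicate block 38 miRNAs met the criterion (25 higher in R-exo, against 8 without it), none of the 8 arms changed sign, and the log2 fold change of miR-142-5p was 1.502 (adjusted p = 0.54, edgeR's quasi-likelihood test). For the arm ratios the block left the differences as they were, and with 3 pairs the smallest exact p of the sign-flip test is 0.25.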
